A study of Mus musculus with 4 samples.

Results

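The kidney cells of the panobinostat library were compared with those of the vehicle library, cell class by cell class. Cells were taken by the library name that each deposited cell carries, and cells with at least 200 detected genes were kept: 3930 vehicle cells and 4396 panobinostat cells, together 8326 of the 15777 cells kept in the whole series. The animals of both groups were male C57Bl/6 mice of 9 weeks with the genotype Pax2.rtTA;TetO.Cre;R26.Confetti, in which a Pax2-driven, inducible Cre recombinase switches on a multicolour reporter. Both groups had received an anti-GBM serum, which binds the glomerular basement membrane and is a model of crescentic glomerulonephritis. From day 1 they were given either vehicle, which was distilled water, or panobinostat at 15 mg/kg, and they were sacrificed on day 7. Givinostat at 10 mg/kg and ruxolitinib at 60 mg/kg made up the other groups, whose values are given beside some results; these ratios share the vehicle library with panobinostat. Each group consisted of 2 animals and gave 1 library, and it is not stated in the labels whether that library holds cells of both. With 1 library a side there is no replicate, so no test was made: the 95% intervals in square brackets cover counting error only, and every difference is one between these libraries.

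Histone deacetylases remove acetyl groups from histone tails and from other proteins, and panobinostat is a hydroxamate that blocks the zinc-dependent members of this enzyme family. Blocking them leaves chromatin more acetylated, which changes the transcription of many genes in either direction. In this model antibodies bound to the glomerulus draw in lymphocytes and myeloid cells, among them T cells of the type 17 kind, which secrete the cytokine interleukin 17 and in turn attract neutrophils and monocytes.

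The libraries were alike in depth but not equal. They held 40627826 (vehicle) and 36861583 (panobinostat) UMIs (unique molecular identifiers, 1 per captured transcript), with medians of 7957.5 and 6568.5 UMIs and 2420.5 and 2118 genes per cell. The lowest UMI count of a kept cell was 3723 (vehicle) and 2920 (panobinostat). The median mitochondrial share was 11.4% (vehicle) and 12.6% (panobinostat), and 4 cell barcodes occurred in both libraries. All 109 panobinostat cells under 200 genes carried mostly haemoglobin transcripts, and no vehicle cell fell under 200 genes. Erythroid-like cells numbered 7 and 99. The summed level of the erythroid markers was higher in the panobinostat library in 12 of 16 classes and lower in 4, among them the macrophage-like and B or plasma-like classes, and its part in the results was not tested.

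Type 17 lymphocytes were far fewer in the panobinostat library. Alpha-beta type 17-like cells, T cells with the conventional receptor that carry Il17a, Ccr6 and other genes of this programme, numbered 135 among vehicle cells and 10 among panobinostat cells. Their share of kept cells was 3.44% and 0.227%, a ratio of 0.0662 [0.0310 to 0.126]. Gamma-delta type 17-like cells, which use the other T cell receptor and make interleukin 17 without prior priming, numbered 126 and 31, or 3.21% and 0.705% of kept cells, a ratio of 0.220 [0.143 to 0.328]. The givinostat library held 60 and the ruxolitinib library 46 alpha-beta type 17-like cells, and they held 110 and 92 gamma-delta type 17-like cells. The panobinostat library thus had the fewest cells of both kinds among the 4 libraries.

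T and NK-like cells as a whole numbered 759 (vehicle) and 502 (panobinostat), so the type 17 cells were also compared within this population. Over T and NK-like cells alone, alpha-beta type 17-like cells made up 17.8% (vehicle) and 1.99% (panobinostat), a ratio of 0.112 [0.0525 to 0.212]. Gamma-delta type 17-like cells made up 16.6% and 6.18%, a ratio of 0.372 [0.243 to 0.555]. Without both type 17 classes, 498 and 461 T and NK-like cells remained. Because Il17a and its partners define these clusters, the T and NK-like cells were also clustered without the type 17 genes. The matching classes then held 134 and 9 alpha-beta and 126 and 32 gamma-delta cells, so the difference in numbers did not need those genes to be seen.

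The same difference appeared in the transcripts summed over all kept cells, with no cell class involved. Il17a (chr1:20730905-20734496, mm10, plus strand), the signature cytokine of these cells, had 2448 UMIs (vehicle) and 248 UMIs (panobinostat). Its level was 60.3 and 6.73 CPM (UMIs divided by the library's total and scaled by a constant), a ratio of 0.112 [0.0976 to 0.127], and it was 77.8 CPM with givinostat and 45.1 CPM with ruxolitinib. Il17a UMIs were found in 218 vehicle cells and 22 panobinostat cells. Il17f, its closest relative, was at 10.98 and 0.841 CPM, a ratio of 0.0766 [0.0514 to 0.110]. Ccr6, a chemokine receptor of type 17 cells, was at 6.69 and 1.38 CPM, a ratio of 0.207 [0.15 to 0.28]. Trdc, the constant region of the delta receptor chain, was at 29.7 and 12.5 CPM, a ratio of 0.420 [0.376 to 0.468].

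Other lymphocyte transcripts were less far below vehicle, or not below it. Trac, the constant region of the alpha receptor chain, had a ratio of 0.573 [0.535 to 0.613] over all kept cells. Ifng, the cytokine of type 1 lymphocytes and NK cells, had a ratio of 1.00 [0.919 to 1.10], and Ncr1, a receptor of NK cells, 1.11 [0.924 to 1.34]. Foxp3, the factor that defines regulatory T cells, rested on 57 and 38 UMIs, with a ratio of 0.735 [0.474 to 1.13] whose interval includes 1.

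**Figure D1:**
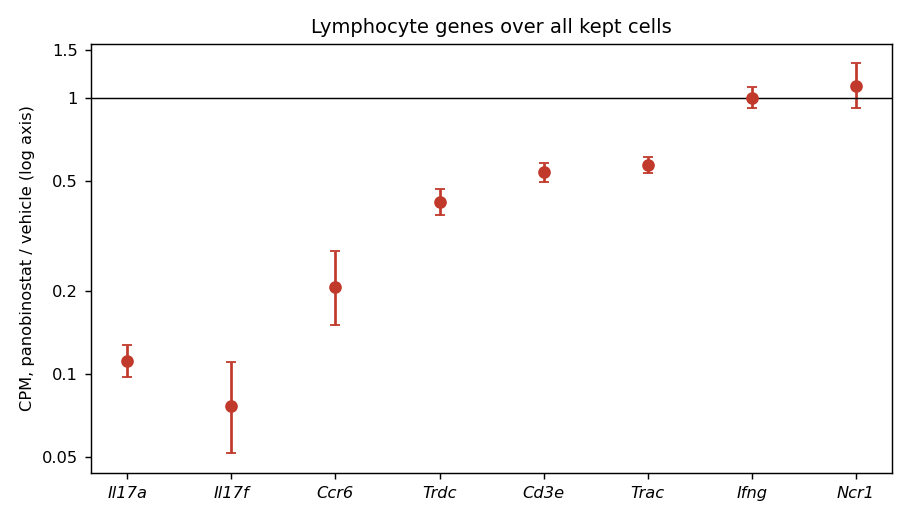
Ratio of panobinostat to vehicle CPM, on a log axis, for 8 lymphocyte genes summed over all kept cells of each library, with exact 95% intervals for counting error. Il17a and Il17f lie near 0.1, the T cell receptor genes between 0.4 and 0.6, and Ifng and Ncr1 at or close to 1.

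The gamma-delta type 17-like cells that were present in the panobinostat library carried much the same level of their cytokine. Il17a was at 1690 CPM in the vehicle cells and 1570 CPM in the panobinostat cells of this class, a ratio of 0.929 [0.796 to 1.08], and it was detected in 77 of 126 and 14 of 31 cells. Il17f was at 230 and 198 CPM, and Ccr6 at 118 and 114 CPM. As these genes define the class, their levels within it are a description. In T and NK-like cells outside both type 17 classes, Il17a had 7 UMIs in 5 of 498 vehicle cells and 0 in the 461 panobinostat cells, and Trac was at 412 and 418 CPM.

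The remaining T and NK-like cells were made up differently in the panobinostat library. NK-like cells, innate lymphocytes that kill without a T cell receptor, numbered 52 (vehicle) and 100 (panobinostat), or 6.85% and 19.9% of T and NK-like cells, a ratio of 2.91 [2.06 to 4.15]. Over all kept cells their ratio was 1.72 [1.22 to 2.45], but it was 0.940 when both libraries were held to the higher of their lowest UMI counts. That setting left out 616 panobinostat cells and 0 vehicle cells, and NK-like cells are shallow, with medians of 4467.5 and 3635.5 UMIs. A floor relative to depth, at the same fraction of each library's proximal tubule-like median, left out 10 panobinostat cells and 0 vehicle cells. With it the NK-like ratio over all kept cells stayed within its interval. Within T and NK-like cells, Xcl1-like cells, which carry the chemokine Xcl1, kept their share at 20.8% and 20.3%. The ratios were 1.43 [1.05 to 1.94] for CD8-like, 1.40 [1.06 to 1.85] for naive-like and 1.25 [0.864 to 1.80] for CD4 helper-like cells. All of these shares sum to the whole, so the low number of type 17 cells raises every other share.

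Among the other classes, monocyte-like cells and B or plasma-like cells were more frequent in the panobinostat library, and loop of Henle-like and collecting duct principal or connecting tubule-like cells were less frequent. Monocyte-like cells numbered 150 and 259, or 3.82% and 5.89% of kept cells, a ratio of 1.54 [1.26 to 1.90]. Their share was 8.70% under givinostat and 5.86% under ruxolitinib. B or plasma-like cells numbered 20 and 52, a ratio of 2.32 [1.36 to 4.11]. It was 1.20 when both libraries were held to the same lowest UMI count, and within this interval with the floor relative to depth. B or plasma-like cells made up 0.509% (vehicle), 1.18% (panobinostat), 1.64% (givinostat) and 1.91% (ruxolitinib) of kept cells. For both classes the vehicle library was thus the low one. Proximal tubule-like cells made up 45.8% and 57.5% of the libraries and so compress the other shares. Loop of Henle-like cells, which dilute the urine by reabsorbing salt, numbered 171 and 114, a ratio of 0.596 [0.466 to 0.760], and 0.800 [0.626 to 1.02] over cells that were neither proximal tubule-like nor erythroid-like. Collecting duct principal or connecting tubule-like cells, which adjust water and sodium uptake, numbered 133 and 65, a ratio of 0.437 [0.320 to 0.592], and 0.587 [0.429 to 0.795] over those same cells. Distal convoluted tubule-like cells had a ratio of 1.00 [0.644 to 1.57], intercalated-like cells 0.811 [0.512 to 1.28] and endothelial-like cells 0.764 [0.491 to 1.18].

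**Figure D2:**
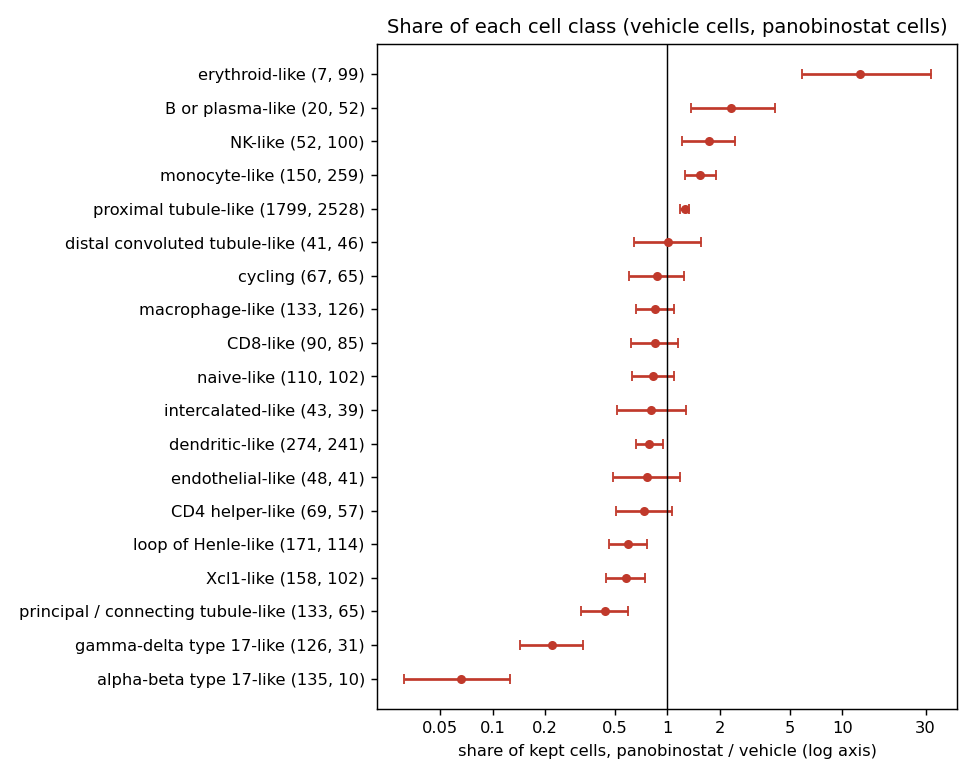
Ratio of the share of kept cells (panobinostat over vehicle, log axis) for 19 cell classes, with exact 95% intervals for counting error and the cells of each library in brackets. Both type 17-like classes lie lowest, at 0.0662 and 0.220, and erythroid-like cells highest, at 7 against 99 cells.

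Gene levels were then compared within each class, as UMIs summed per library and scaled to CPM. A gene counted as measured in a class with at least 50 CPM in either library and 20 UMIs in the higher one. Since 1 library suffices, a low gene enters through the library where it is high. Log2 ratios carry a pseudocount of 5 CPM, and a gene was called past the threshold at 1.5-fold. Over 11 classes, 2624 genes were measured in at least 5 of them. Of these, 0 were past 1.5-fold the same way in at least 70% of their classes, and the median of their class medians was near 0, so no gene passed this rule for the kidney as a whole. The 6 genes whose class median was past 1.5-fold were Hspa1b, Hspa1a, Emsy and Slc16a6 on the higher side and Pmepa1 and Bcl2a1b on the lower side. Hspa1b had a median log2 ratio of 0.85 and was above vehicle in 5 of 5 classes, Hspa1a had 0.74 and was above in 6 of 6, and Pmepa1, an inhibitor of TGF-beta signalling, had -0.71 and was above in 0 of 5.

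A list of 16 genes known to respond to inhibitors of histone deacetylases, among them the linker histone H1f0, the cell cycle inhibitor Cdkn1a and the transcription factors Klf2 and Klf4, was followed through all classes. It did not have a common direction. Its median log2 ratio was 0.55 in loop of Henle-like cells and 0.56 in distal convoluted tubule-like cells, and lay between -0.24 and 0.32 in the other classes read. In loop of Henle-like cells 4 of 10 measured members were past 1.5-fold on the higher side and 0 on the lower, where 4.54% (higher) and 1.55% (lower) of all 3216 measured genes were. In distal convoluted tubule-like cells 5 of 11 were past it on the higher side and 1 on the lower, against 6.07% and 9.43% of all genes, but the median was -0.0054 with the 5% of cells of highest doublet score left out. Counts elsewhere were small. In monocyte-like cells 0 and 1 of 11 measured members were past it on the higher and lower side, against 1.56% and 1.66% of all genes, and in macrophage-like cells 2 and 1 of 11, against 5.86% and 5.16%. Proximal tubule-like cells had 0 and 2 of 8, against 0.430% and 1.43%, gamma-delta type 17-like cells 1 and 2 of 6, against 2.92% and 17.6%, and B or plasma-like cells 3 and 1 of 7, against 33.4% and 4.56%. In the 2 loop of Henle-like clusters with at least 20 cells in both libraries the medians were -0.08 and -0.03. H1f0 itself, which in many cell types is a sensitive mark of deacetylase inhibition, was at 129 CPM (vehicle) and 160 CPM (panobinostat) in principal or connecting tubule-like cells and at 169 and 153 CPM in loop of Henle-like cells.

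Klf2, a transcription factor that keeps lymphocytes quiescent and recirculating, was above vehicle in all 7 lymphocyte classes with enough cells. It was at 541 CPM (vehicle) and 1210 CPM (panobinostat) in CD4 helper-like cells, a ratio of 2.24 [1.85 to 2.71]. In Xcl1-like cells it was at 1163 and 2273 CPM, a ratio of 1.95 [1.79 to 2.14], and in gamma-delta type 17-like cells at 691 and 1204 CPM, a ratio of 1.74 [1.44 to 2.10]. It was higher by a smaller factor in NK-like cells (2303 and 3353 CPM), naive-like cells (2395 and 3164 CPM), CD8-like cells (819 and 1084 CPM) and B or plasma-like cells (1465 and 2412 CPM). In all of these except B or plasma-like cells, where the ruxolitinib library was at 2433 CPM, the panobinostat library had the highest level of the 4 libraries. In Xcl1-like cells givinostat was at 1057 CPM and ruxolitinib at 1694 CPM, and in CD4 helper-like cells they were at 855 and 1009 CPM. Outside the lymphocytes Klf2 was at 128 and 337 CPM in loop of Henle-like cells, but it was not higher in myeloid and endothelial classes. It was at 1372 and 1051 CPM in macrophage-like cells, at 937 and 919 CPM in monocyte-like cells, at 634 and 573 CPM in dendritic-like cells and at 1313 and 1193 CPM in endothelial-like cells.

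Dbp (chr7:45705088-45710203, mm10, plus strand) encodes a transcription factor whose level follows the circadian clock and passes it on to metabolic genes. It was lower in the panobinostat library in every nephron class. In principal or connecting tubule-like cells it was at 178 CPM (vehicle), 46.9 (panobinostat), 83.4 (givinostat) and 147 (ruxolitinib), a panobinostat ratio of 0.264 [0.182 to 0.371]. In loop of Henle-like cells it was at 175 and 71.1 CPM, a ratio of 0.406 [0.302 to 0.538], with 98.2 CPM under givinostat and 135 under ruxolitinib. The ratio was 0.363 [0.21 to 0.60] in distal convoluted tubule-like cells (146 and 53.1 CPM) and 0.418 [0.248 to 0.677] in intercalated-like cells (106 and 44.2 CPM). In proximal tubule-like cells it was nearer to vehicle, at 128 and 91.6 CPM. Endothelial-like cells had 246 CPM (vehicle) and 71.3 CPM (panobinostat), a ratio of 0.289 [0.177 to 0.452], and macrophage-like cells 57.8 and 27.6 CPM.

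The lower Dbp level was also seen within single clusters. Within the loop of Henle-like clusters the ratios were 0.52 and 0.46, and within the principal or connecting tubule-like clusters 0.26 and 0.11. Usp2, a deubiquitinase that is also a clock output gene, was at 175 and 102 CPM in loop of Henle-like cells and at 145 and 80.8 CPM in principal or connecting tubule-like cells, but at 82.0 and 94.5 CPM in intercalated-like cells. Per1, a core clock gene, was at 22.4 and 22.9 CPM in loop of Henle-like cells and at 64.7 and 24.8 CPM in endothelial-like cells. The labels give no hour of sacrifice, so the drug and the hour cannot be told apart.

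The 250 bases before the Dbp gene start (RefSeq, GRCm38.p6, chr7:45704997-45705246, plus strand) hold 0 matches to CACGTG, the E-box that the clock factors bind, and therefore have no capitals. The RefSeq start lies inside the gene as placed by the annotation used for the coordinates above, so this window overlaps that gene. The motif reads the same on both strands and occurs in 6.02% of 32851 windows of 250 bases before a gene start. The window before Usp2 also holds 0 matches. For both genes, sequence outside these windows was not searched, so E-boxes elsewhere in or around them would not be seen.
Dbp: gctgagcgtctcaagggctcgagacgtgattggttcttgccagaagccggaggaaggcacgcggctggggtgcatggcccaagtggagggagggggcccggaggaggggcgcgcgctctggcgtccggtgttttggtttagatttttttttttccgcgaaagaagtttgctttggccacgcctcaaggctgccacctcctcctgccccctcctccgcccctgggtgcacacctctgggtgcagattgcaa

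Hspa1a (chr17:34969190-34972156) and Hspa1b (chr17:34956436-34959238), both on the minus strand, encode the inducible HSP70 chaperone, which refolds damaged proteins. They are near-identical copies, so reads may have been split between them or lost. The 250 bases before their starts are shown because both genes stood at the top of the list over classes. These windows differ at 3 of 250 positions, and each holds 1 match, in capitals, to GAANNTTC, a head-to-head form of the heat shock element, which begins 104 bases before the gene start. The form occurs in 6.69% of the 32851 windows, reads the same on both strands, and is a match of letters only. The windows were also searched for the tail-to-tail form TTCNNGAA, and 12.8% of the 32851 windows hold either form. The sequences are from RefSeq (GRCm38.p6), at chr17:34972157-34972406 for Hspa1a and chr17:34959239-34959488 for Hspa1b, both on the minus strand.
Hspa1a: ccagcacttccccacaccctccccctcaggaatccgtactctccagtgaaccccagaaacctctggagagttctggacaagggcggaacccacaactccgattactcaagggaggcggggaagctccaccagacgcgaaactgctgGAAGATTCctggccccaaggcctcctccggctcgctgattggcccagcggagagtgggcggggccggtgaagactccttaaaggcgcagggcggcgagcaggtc
Hspa1b: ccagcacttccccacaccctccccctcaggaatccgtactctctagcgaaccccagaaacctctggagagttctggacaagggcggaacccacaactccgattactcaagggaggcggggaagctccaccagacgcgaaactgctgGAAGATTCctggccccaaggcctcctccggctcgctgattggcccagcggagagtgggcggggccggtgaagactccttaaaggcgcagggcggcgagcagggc

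The levels of both copies were above vehicle in all 9 classes plotted, by very different amounts. In loop of Henle-like cells Hspa1a was at 209 CPM (vehicle) and 550 CPM (panobinostat), a ratio of 2.63 [2.28 to 3.02], and Hspa1b at 86.3 and 229 CPM. In endothelial-like cells they were at 316 and 493 CPM and at 104 and 205 CPM. In macrophage-like cells Hspa1a was at 405 and 712 CPM, a ratio of 1.76 [1.55 to 1.99]. In proximal tubule-like cells they were close to vehicle, at 47.0 and 51.6 CPM for Hspa1a and 24.8 and 30 CPM for Hspa1b. Dendritic-like cells had Hspa1a at 105 and 170 CPM, with unlike ratios in their clusters. In the largest one, which held most of the UMIs, it was at 151 and 188 CPM, a ratio of 1.25 [1.05 to 1.47]. In the cluster led by Xcr1, a receptor of cross-presenting dendritic cells, Hspa1a was at 54.7 and 221 CPM, a ratio of 4.04 [2.77 to 5.99], and Hspa1b at 12.6 and 114 CPM, a ratio of 9.00 [4.40 to 20.8].

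In the loop of Henle-like class the Hspa1a difference moved with the mix of clusters and with 1 cell. The panobinostat cell with the most Hspa1a UMIs held 28% of them, and without the top cell of each library the log2 ratio was 1.12. Within the largest loop of Henle-like cluster Hspa1a was at 139 and 128 CPM, and within the next one at 61.0 and 62.6 CPM. These clusters held 64 and 30 vehicle cells and 23 and 24 panobinostat cells, so the class is composed differently in the libraries. The dendritic-like difference was -0.08 at a clustering resolution of 0.5.

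**Figure D3:**
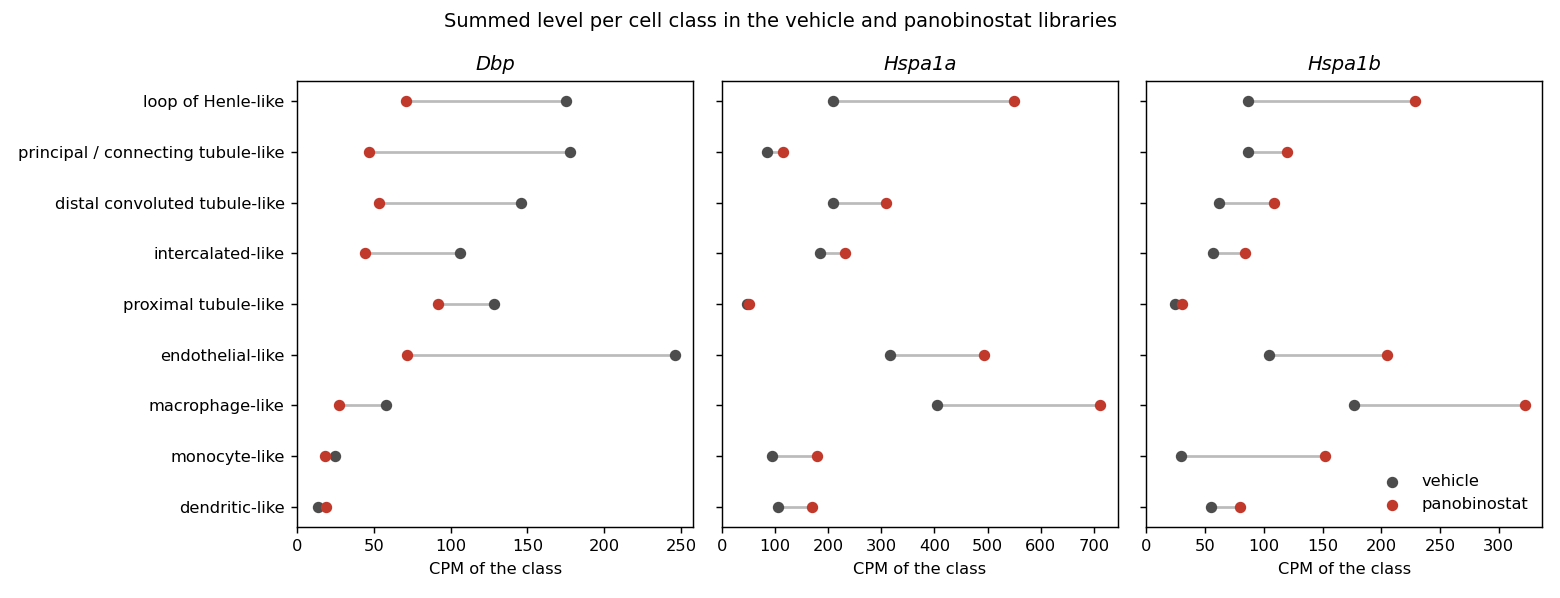
Summed CPM of Dbp, Hspa1a and Hspa1b in 9 cell classes, with 1 point for the vehicle library and 1 for the panobinostat library. Dbp is lower in the panobinostat library in the nephron classes and in endothelial-like cells, while Hspa1a and Hspa1b lie above vehicle by amounts that range from 47.0 against 51.6 CPM to 209 against 550 CPM for Hspa1a.

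Loop of Henle-like cells had higher immediate early and injury transcripts in the panobinostat library. The immediate early and dissociation list holds genes that cells switch on within minutes of a stimulus, tissue dissociation included. In this class 13 of its 16 members were measured, all 13 were above vehicle and 10 were past 1.5-fold, with a median log2 ratio of 0.79 beside 0.02 over all measured genes, of which 4.54% were higher and 1.55% lower past 1.5-fold. Fos, a subunit of the AP-1 transcription factor, was at 1976 CPM (vehicle) and 3584 CPM (panobinostat), a ratio of 1.81 [1.73 to 1.91]. Its partner Junb was at 841 and 1567 CPM, the stress factor Atf3 at 696 and 1226 CPM, and the phosphatase Dusp1 at 336 and 707 CPM. Of the glucocorticoid response list 6 of 10 measured members were past 1.5-fold on the higher side and 0 on the lower. Of the tubular injury list 5 of 11 were past it on the higher side and 0 on the lower, with Krt18, a keratin of the cytoskeleton, at 58.7 and 148 CPM and Lcn2, an iron-binding protein that injured tubules secrete, at 833 and 1428 CPM.

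Of the thick limb and distal transport list 16 members were measured in the same cells, with 5 above vehicle and a median of -0.08. Past 1.5-fold were 2 on the higher side and 0 on the lower, beside 4.54% and 1.55% of all measured genes of the class. Umod, the most abundant urinary protein, was at 24655 and 20009 CPM, and Slc12a1, the sodium-potassium-chloride carrier, at 4606 and 4009 CPM. All 13 mitochondrially encoded genes of the respiratory chain were below vehicle, with a median of -0.38 and 0 past 1.5-fold. The median mitochondrial share per cell was 12.3% and 9.89%, and the median UMI count 9834 and 6295.

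The 5 highest genes of this class were Rasl11a, Gas1, Hbegf, Nupr1 and S100g, and the 5 lowest Dbp, Apoe, Degs1, Kdelr1 and Usp2. Rasl11a, a small GTPase, was at 10.9 CPM (vehicle) and 113 CPM (panobinostat), a ratio of 10.4 [6.28 to 18.0], with UMIs in 9 and 22 cells. It was at 25.2 CPM under givinostat and 22.6 under ruxolitinib, so the panobinostat library stood apart from the other 3. Hbegf, a ligand of the EGF receptor that tubules release after injury, was at 218 and 617 CPM, but also at 600.2 CPM under givinostat and 515 under ruxolitinib, so there the vehicle library was the low one. Apoe, a lipid carrier, was at 272 and 123 CPM. Kdelr1, which returns proteins to the endoplasmic reticulum, was at 119 and 65.0 CPM. S100g, a calcium-binding protein, turned from a ratio above 1 to a log2 ratio of -0.41 under the stricter cell filter.

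The immediate early and injury lists of this class lay nearer to vehicle, or below it, within clusters. In the largest cluster the immediate early list had a median of 0.48 and the injury list 0.10, and in the other cluster with enough cells the medians were -0.36 and -0.63. Hbegf and Nupr1 are leading genes of clusters in this class, and Hbegf was at 97.7 and 79.5 CPM within the largest cluster. S100g and Apoe kept their side in both: S100g was at 76.1 and 636 CPM in the largest and at 115 and 327 CPM in the other, and Apoe at 470 and 239 CPM and at 208 and 69.6 CPM. Over the whole class, however, S100g UMIs were found in 93 of 171 vehicle cells and only 29 of 114 panobinostat cells. The top cell held 17.8% (vehicle) and 42.2% (panobinostat) of these UMIs. The part of single cells in the S100g levels of the clusters was not tested.

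**Figure D4:**
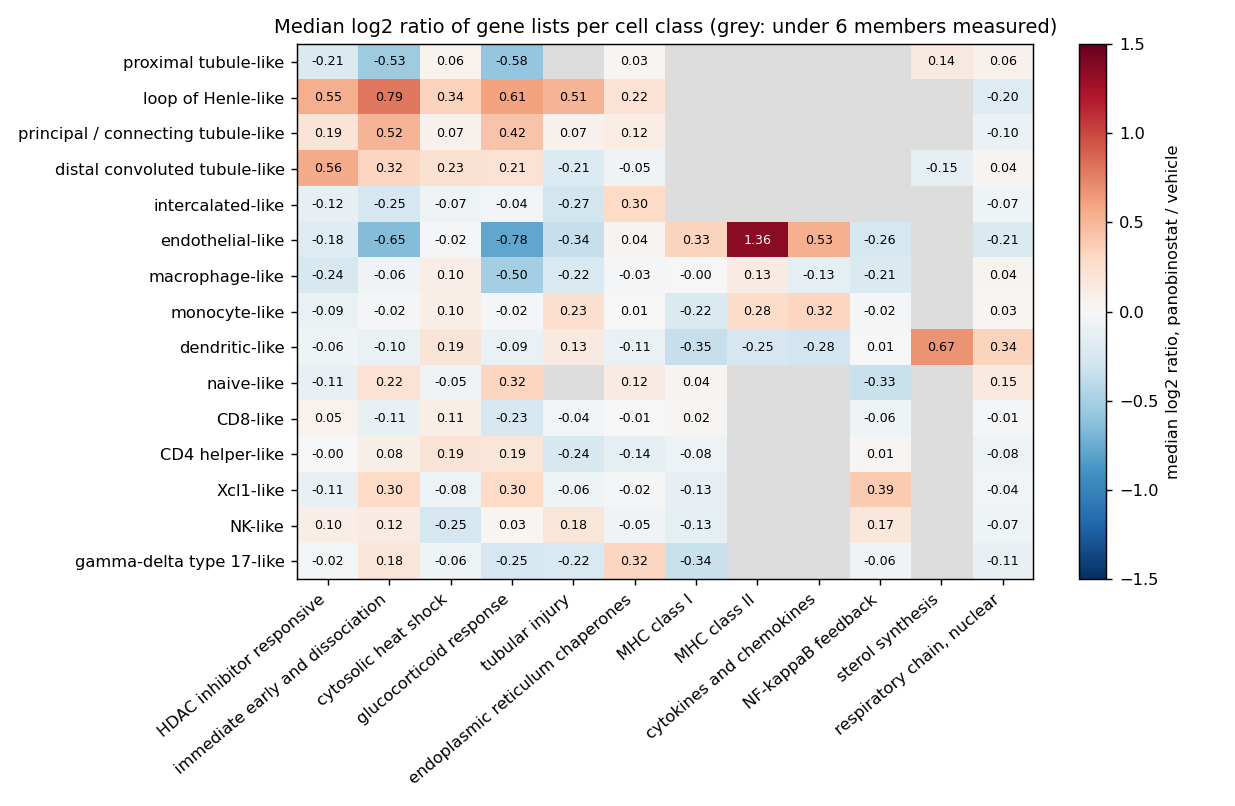
Median log2 ratio (panobinostat over vehicle, pseudocount 5 CPM) of 12 gene lists in 15 cell classes, with grey where under 6 members were measured. The immediate early list is at 0.79 in loop of Henle-like cells and at -0.65 in endothelial-like cells, and MHC class II is at 1.36 in endothelial-like cells.

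Collecting duct principal or connecting tubule-like cells had higher levels of a kinase of the sodium response and, over the class as a whole, near-equal levels of the channels it acts on. Sgk1 (chr10:21882184-21999903, mm10, plus strand), a kinase induced by aldosterone and glucocorticoids that keeps sodium channels at the membrane, was at 113 CPM (vehicle) and 274 CPM (panobinostat), a ratio of 2.42 [2.01 to 2.92]. It was at 144 CPM under givinostat and 252 under ruxolitinib. The ratio held within both clusters with enough cells, at 179 and 366 CPM in one and 48.8 and 89.7 CPM in the other. Of the list of principal cell channels and aldosterone response genes, 12 of 15 were measured, with a median of 0.04 and 1 past 1.5-fold on the higher side, where 2.89% of all genes were (0.984% on the lower). This median was -0.50 within 1 of these clusters and moved by at most 0.2 within the other. It was 0.25 under the stricter cell filter. The water channel Aqp2 was at 2613 and 3084 CPM, and the sodium channel subunits Scnn1b and Scnn1g at 590 and 510 CPM and at 456 and 422 CPM.

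Among the other named genes of this class, Itga6, a laminin receptor of the basal membrane, was at 84.2 and 190 CPM, a ratio of 2.26 [1.81 to 2.82] that was 2.33 and 1.78 within the clusters. Rasd1, a small GTPase induced by glucocorticoids, was at 49 and 120 CPM, with 30.4% of the panobinostat UMIs in 1 cell. Fos was at 326 and 696 CPM over the class, with UMIs in 56 vehicle and 19 panobinostat cells. Gadd45b, a stress gene, was at 48.5 and 107 CPM. The immediate early list had a median of 0.52, with 11 of 13 measured members above vehicle and 5 past 1.5-fold (2.89% of all genes were higher and 0.984% lower past it), but it was 0.83 in one cluster and -1.17 in the other. Of the 5 lowest genes, Dbp, Herpud1, S100g, Usp2 and Ttc3, Herpud1, which helps clear misfolded proteins from the endoplasmic reticulum, was at 104 and 50.8 CPM. S100g, which leads a cluster of this class, was at 26652 CPM in the vehicle library, 15227 in the panobinostat library, 17786 under givinostat and 13023 under ruxolitinib, so the vehicle library was the high one.

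Distal convoluted tubule-like and intercalated-like cells numbered 41 to 46 and 39 to 43 per library, so only lists and shared genes were read in them. In intercalated-like cells, which secrete acid or base, 15 members of the acid-base list were measured, 8 were above vehicle and the median was 0.12. The immediate early list lay below vehicle there, with 1 of 14 measured members above vehicle, a median of -0.25 and 4 past 1.5-fold on the lower side, where 8.79% of all genes were (4.62% on the higher). In distal convoluted tubule-like cells 11 of 14 of these genes were above vehicle, with a median of 0.32. The distal tubule classes thus did not share a direction for these genes.

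Endothelial-like cells, of which there were 48 (vehicle) and 41 (panobinostat), had higher MHC class II transcripts in the panobinostat library. These genes present peptides to CD4 T cells and are switched on in endothelium by interferon gamma. Of the 9 genes of the list 7 were measured and all 7 were past 1.5-fold on the higher side, where 10.8% of all 3755 measured genes were (13.6% on the lower). Their median log2 ratio was 1.36 beside -0.06 over all genes. Cd74, the invariant chain, was at 1340 CPM (vehicle), 3536 (panobinostat), 4116 (givinostat) and 1831 (ruxolitinib), a panobinostat ratio of 2.64 [2.40 to 2.90]. H2-Aa was at 658 and 1680 CPM, H2-Ab1 at 721 and 1822 CPM and H2-Eb1 at 547 and 1407 CPM.

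A few cells carried most of these transcripts. Cd74 was found in 27 vehicle and 14 panobinostat cells, and the top cell held 30.5% and 41.3% of its UMIs. For H2-Ab1 the top panobinostat cell held 55.4%. The level of Cd74 estimated to come from RNA of other cells was 826 and 601 CPM. With the cell holding most UMIs of the list left out of each library, the median of the list was 1.23, and with the 5% of cells of highest doublet score left out it was 2.41. Beside it, the myeloid lysozyme Lyz2 was at 331 and 970 CPM in the same cells, the summed dendritic markers at 73.7 and 245 CPM, the monocyte markers at 351 and 728 CPM and the macrophage markers at 1241 and 1023 CPM. Markers of other kidney cells were also unequal: the summed loop of Henle markers were at 2663 and 828 CPM and the erythroid markers at 50.3 and 6884 CPM. Their part in the result was not tested.

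**Figure D5:**
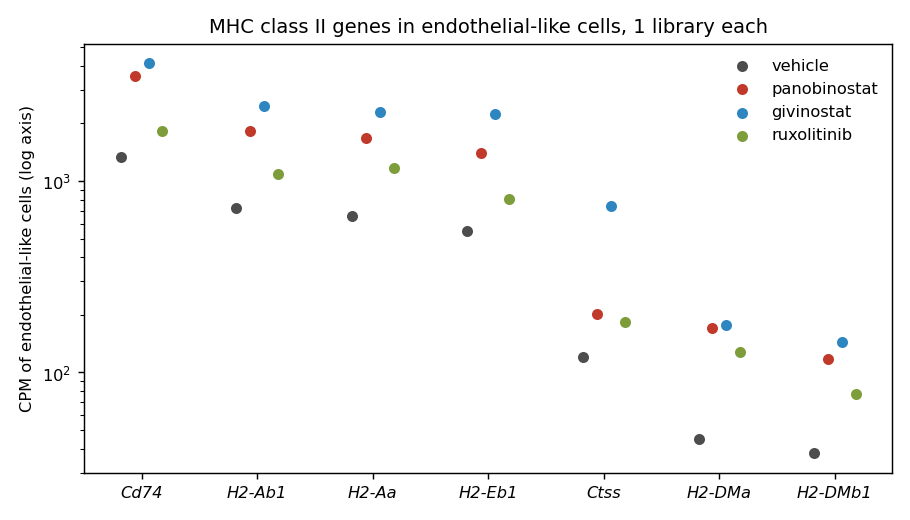
CPM of 7 MHC class II genes (log axis) in endothelial-like cells, with 1 point per library. Panobinostat lies above vehicle for all 7 genes, and givinostat lies above panobinostat for all 7.

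Other endothelial genes lay on both sides of vehicle. Plvap, the diaphragm protein of fenestrated capillaries and a leading gene of this cluster, was at 475 and 1125 CPM, with 2043 under givinostat and 991 under ruxolitinib. Igfbp5, which binds insulin-like growth factors, was at 539 and 1280 CPM. Edn1, the vasoconstrictor endothelin, was at 144 and 62.0 CPM, a ratio of 0.431 [0.250 to 0.710], and Nos3, which makes nitric oxide, at 80.9 and 43.4 CPM. Edn1 and Nos3 were at 70.3 and 42.4 CPM under givinostat but at 144 and 102 CPM under ruxolitinib. The general endothelial markers Pecam1 and Emcn were near vehicle, at 509 and 598 CPM and at 870 and 989 CPM. Of the immediate early list 14 of 15 measured members were below vehicle and 8 past 1.5-fold, with a median of -0.65, where 13.6% of all genes were lower past it. Fos was at 2525 and 1373 CPM and Egr1 at 1660 and 769 CPM.

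Dendritic-like cells, which take up antigen and prime T cells, had antigen presentation genes slightly below vehicle. All 10 measured MHC class I genes and all 9 MHC class II genes were below vehicle, with medians of -0.35 and -0.25 and 0 and 1 past 1.5-fold, where 1.69% of all 3140 measured genes were lower past it (7.74% higher). The class I median was -0.14 in 2 of the 3 clusters. Proximal tubule markers, which mark another cell type, summed to 1030 and 3123 CPM in the dendritic-like class, and their part in these values was not tested. H2-K1, a class I heavy chain, was at 1225 and 880 CPM, and Cd74 at 17913 and 15016 CPM. The 5 lowest genes were Fn1, Mmp12, Fabp5, Bcl2a1b and Lyz2. The summed macrophage markers of the class were at 466 and 666 CPM and the monocyte markers at 2044 and 1667 CPM. Fn1, the matrix protein fibronectin, was at 276 CPM (vehicle), 56.6 (panobinostat), 115 (givinostat) and 50.7 (ruxolitinib). Mmp12, a metalloelastase of macrophages, was at 331, 100.4, 218 and 89.1 CPM in the same order. Ruxolitinib thus lay below panobinostat for both, and each was found in a minority of cells (Fn1 in 38 and 19, Mmp12 in 41 and 37). Lyz2 was at 1624 and 745 CPM, but its log2 ratio was 0.04 under the stricter cell filter and 0.67 at a resolution of 0.5.

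Of the chemokines of mature dendritic cells, Ccl22, which attracts regulatory and type 2 T cells, was at 177 CPM (vehicle), 46.2 (panobinostat), 28.9 (givinostat) and 41.3 (ruxolitinib), with UMIs in 20 vehicle and 11 panobinostat cells. Ccl17, which shares its receptor, was at 184 and 119 CPM. All 3 drug libraries were below vehicle for both genes.

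On the higher side dendritic-like cells had genes of cholesterol synthesis. All 8 measured members of the sterol synthesis list were above vehicle and 5 were past 1.5-fold, with a median of 0.67, where 7.74% of all genes were higher and 1.69% lower past it. Hmgcs1, an early enzyme of the pathway, was at 64.6 and 142 CPM, and Idi1, a later one, at 30.9 and 63.6 CPM. The estimated level from RNA of other cells moved with this: the share of proximal tubule markers in dendritic-like cells was 0.128 (vehicle) and 0.300 (panobinostat) of their level over all cells, and for Hmgcs1 the estimate was 25.7 and 95.1 CPM. With that estimate subtracted the median was 0.25. The highest named genes were Tnfsf9, a costimulatory ligand, at 121 and 207 CPM, Ogdh, Hspa1a, Ash1l and Gpr137b. Gpr137b was at 91.8 and 140 CPM, of which 15.2 and 59.8 CPM were estimated to come from other cells. For Ogdh (69.1 and 115 CPM) the estimate was 23.4 and 54.9 CPM, and for Ash1l (67.0 and 103 CPM) 15.7 and 33.9 CPM. It was 11.6 and 32.0 CPM for Hspa1a and 1.64 and 5.76 CPM for Tnfsf9. The part of this RNA in the ratios was not tested.

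The NK-like cells kept their killing genes at the vehicle level. None of 9 measured members of the cytotoxic list was past 1.5-fold, in a class where 13% of all 2569 measured genes were higher and 5.68% lower past it. The granzymes Gzma and Gzmb were at 8279 and 8910 CPM and at 1101 and 1116 CPM, and the pore former Prf1 at 963 and 936 CPM. Of the cytokine and chemokine list only 3 of 22 members were measured and 1 was past 1.5-fold. Ccl3 was at 1353 and 2533 CPM, and Ccl4 and Ccl5, which did not pass it, were at 4363 and 6392 CPM and at 16347 and 17837 CPM. The named genes were Zfp512, Nabp1, Mirt1, Cyb5a and Klhl6 on the higher side and Gxylt1, Rgs16, Ddx54, R3hdm1 and Trpm7 on the lower. Rgs16, which damps chemokine receptor signalling, was at 215 and 74.1 CPM.

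In Xcl1-like cells genes of NF-kappaB feedback were on the higher side. Of 10 measured members 8 were above vehicle and 2 past 1.5-fold, with a median of 0.39; 4.18% of all 2970 measured genes were higher and 5.05% lower past it. Nfkbiz, an atypical inhibitor of NF-kappaB, was at 293 and 545 CPM, and Traf1 at 311 and 586 CPM. Ifng was at 446 and 658 CPM. The named genes were Ccl3, Hmgn1, Mxd1, Klf2 and Pim1 on the higher side and Klra7, Lgals3, Serpina3g, Klra5 and Apobec3 on the lower. Ccl3 was at 73.6 and 230 CPM and Pim1, a survival kinase, at 700.0 and 1325 CPM. The NK receptor genes Klra7 and Klra5 were at 118 and 45.1 CPM and at 163 and 90.1 CPM, and Klra5 leads a cluster of this class.

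In CD4 helper-like cells only 4 members of the cytokine and chemokine list were measured (Ccl5, Cxcl10, Tnf and Il10), all 4 were below vehicle and 2 were past 1.5-fold, with a median of -0.63, where 12.8% of all 2531 measured genes were lower past it and 5.22% higher. Ifng was at 354 and 149 CPM, a ratio of 0.420 [0.278 to 0.618], the opposite side from Xcl1-like cells. Il4, the cytokine of type 2 help, had 45 UMIs in 8 vehicle cells and 2 UMIs in 2 panobinostat cells, and 64.4% of the vehicle UMIs came from 1 cell. Receptor and signalling genes of T cell identity were near vehicle, with 0 of 12 measured past 1.5-fold. On the higher side the rule named Ddit3, Pdcd1, Tsc22d3, Arap2 and Chchd10. Tsc22d3, a glucocorticoid-induced regulator, was at 161 and 415 CPM, Ddit3, a factor of endoplasmic reticulum stress, at 57.5 and 179 CPM, and Pdcd1, the checkpoint receptor PD-1, at 37.4 and 105 CPM. The lowest were Il4, S100g, Trpm7, Tceal9 and Klk8. S100g is a distal tubule transcript, and its estimate from RNA of other cells was 81.5 CPM of 187 in the vehicle library.

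In CD8-like cells Gzma was at 260 and 778 CPM, with UMIs in 14 and 17 cells, and Lgals3, a galectin of activated cells, at 227 and 119 CPM. Its named genes were Tnrc6a, Surf4, Ostc, Txk and Pitpna on the higher side and Ier5l, Suco, Csrnp1, Lgals3 and Tgif1 on the lower. In naive-like cells these were Pdlim4, Ndufb4, Rgs1, Msi2 and Nabp1, and Pcnp, Ppp2r2a, Rcc2, Il21r and Mrpl30. Rgs1, which holds lymphocytes in tissue by damping chemokine receptors, was at 97.5 and 181 CPM, and Il21r, the receptor for interleukin 21, at 118 and 63.1 CPM. T cell identity genes had 0 of 12 measured members past 1.5-fold in both classes. The shares of all measured genes past it were 6.44% higher and 5.39% lower in CD8-like cells and 6.46% and 3.46% in naive-like cells.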

How the data were processed

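Droplet single-cell RNA sequencing (3' tags) gave 1 library of kidney cells per group. The values, as deposited by the authors, are raw UMI counts of 16706 genes. Cell Ranger 3.0.1 and mm10 are named in the submitters' processing notes. The library whose name carries no drug was taken as vehicle; no label uses that name. The gene lists, markers and cell classes were chosen with earlier results of these data known.

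Cells of all 4 libraries with at least 200 genes were clustered (scanpy 1.11.5, leidenalg 0.10.2, 2000 variable genes, 30 principal components, 15 neighbours, resolution 1), and T and NK-like, distal tubule-like and mixed clusters were clustered again with 1500 variable genes and 20 components. Clusters were named X-like from at least 3 markers. Scrublet called 1 vehicle and 3 panobinostat cells and so has not worked, and no cell was removed as a doublet; leaving out the 5% highest scores is an alternative. Counts were summed per library and class, for named genes with at least 50 cells and for lists with at least 20 cells in both libraries. Ratios carry exact conditional binomial 95% intervals and shares exact Clopper-Pearson ones. RNA from other cells was estimated from proximal tubule markers. Named genes are the 5 highest and 5 lowest log2 ratios per class among genes with at least 100 CPM and UMIs in 10% of cells of the higher library and an estimate from other cells under 0.5 of the level there, leaving out haemoglobin, immunoglobulin, ribosomal protein, mitochondrial, sex-linked and predicted genes and other classes' markers. Other genes named are list members or were chosen after their values were seen. Coordinates are from GENCODE vM21. On simulated loop of Henle-like counts, 100% of 50 genes with a true ratio of 2 and 1.46% of 2874 unchanged genes were past 1.5-fold. The simulation drew Poisson counting error alone, without differences between cells, clusters or animals. Its 1.46% is therefore no error rate for the real libraries. The alternatives comprised stricter cells (500 genes, 1000 UMIs, 20% mitochondrial), other resolutions, common UMI floors, TMM totals (edgeR 4.0.16), DESeq2 1.42.0 size factors, other pseudocounts, filters and folds, and, chosen after seeing the data, single clusters, the top cell or the highest doublet scores left out, T and NK-like cells clustered without type 17 genes, a UMI floor relative to depth, and a filter on the mean of both libraries.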

Additional observations from a re-analysis of the deposited data

Results flagged for a closer look

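The immediate early and dissociation list lay on opposite sides of vehicle in different cell classes. Its median log2 ratio was 0.52 in collecting duct principal or connecting tubule-like cells and 0.79 in loop of Henle-like cells, but -0.65 in endothelial-like cells and -0.53 in proximal tubule-like cells. The glucocorticoid response list was at 0.61 in loop of Henle-like cells, and at -0.78 in endothelial-like, -0.58 in proximal tubule-like and -0.50 in macrophage-like cells. With 1 library per group these differences between classes were not tested. Within the loop of Henle-like clusters read alone the immediate early median was 0.48 and -0.36.

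The panobinostat cells under 200 genes, which enter no comparison, had a median of 91.8% haemoglobin among their UMIs. The vehicle library had 0 such cells.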

How the results depend on the processing

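No paired analysis was possible because each group has 1 library. The type 17-like shares kept their direction and size under all alternatives run. Holding both libraries to a lowest count of 3723 UMIs put the NK-like share ratio at 0.940 (1.72 in the report), B or plasma-like at 1.20 and CD4 helper-like at 0.422. With the UMI floor relative to depth these ratios stayed within their intervals. The erythroid-like ratio was 1.12 with the stricter cell filter and 4.51 at resolution 1.5. Of 119 named class and gene pairs all kept direction with TMM totals and DESeq2 size factors. With the stricter filter 88 were within the range called the same, 27 had moved and 2 had reversed, namely Lyz2 in dendritic-like cells (0.0397; 0.67 at resolution 0.5) and S100g in loop of Henle-like cells (-0.41); Hspa1a in dendritic-like cells was at -0.0813 at resolution 0.5.

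Genes past 1.5-fold the same way in 70% of classes numbered 3 with the stricter filter, 4 with no level filter, and 1 each with TMM totals, DESeq2 size factors and a filter of 100 CPM. Genes with a class median past it numbered 11 with the stricter filter, 2 with a pseudocount of 20, 64 with no level filter and 2 at 100 CPM. The unequal filter sets part of the split by side: with a filter on the mean of both libraries, 3.99% (higher) and 5.28% (lower) of genes were past the fold in CD4 helper-like, 5.52% and 4.20% in NK-like and 3.35% and 3.93% in gamma-delta type 17-like cells. TMM totals shifted all log2 ratios by -0.20 in B or plasma-like and -0.14 in gamma-delta type 17-like cells, and by under 0.1 elsewhere. The median share of genes past the fold over 8 classes was 9.67%, and 6.17% with a pseudocount of 20, 22.5% with no filter and 1.78% at 2-fold.

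In loop of Henle-like cells the medians (clusters d0 and d6 alone) were 0.48 and -0.36 for immediate early genes, 0.13 and -0.0848 for heat shock, -0.0823 and -0.0333 for deacetylase inhibitor responsive genes, and 0.10 and -0.63 for injury. The stricter filter gave 0.28 for immediate early and 0.19 for deacetylase inhibitor responsive genes, and no level filter 0.20 for the latter and 0.22 for injury. In principal or connecting tubule-like cells the immediate early median was 0.92 (stricter filter), 0.96 (resolutions 0.5 and 1.5), 0.95 (highest doublet scores left out), 0.83 (cluster d2) and -1.17 (cluster d7), and the channel median 0.25 (stricter filter) and -0.50 (d7). Endothelial-like MHC class II was at 0.90 (stricter filter), 2.41 (highest doublet scores left out) and 2.46 (RNA of other cells subtracted), and immediate early genes at -0.90 and -1.28 under the first 2 of these. Dendritic-like sterol synthesis was at 0.45 (resolution 0.5), 0.25 (RNA of other cells subtracted), 1.08 (100 CPM), 0.36 (cluster c23) and 0.45 (c9), and MHC class I at -0.14 in clusters c23 and c24. The deacetylase inhibitor responsive median in distal convoluted tubule-like cells was -0.0054 with the highest doublet scores left out and 0.30 with no level filter. The cause was not tested for any of these.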
